A study of Mus musculus with 7 samples.

Results

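The cytosolic ribosomal protein genes code for the structural proteins of the ribosome that translates nuclear-encoded mRNA. They were taken here as every gene whose symbol is Rpl or Rps followed by a number, with an optional suffix made of the letters a, l, p or x and further digits, together with Rplp0, Rplp1, Rplp2 and Rpsa. The rule found 85 genes of the 27998 in the deposited matrices and used no measured value. Of these, 32 are named for the small and 53 for the large subunit. A group of 8 are minor paralogs with a symbol ending in l or l1 (Rpl3l, Rpl6l, Rpl7l1, Rpl10l, Rpl22l1, Rpl36al, Rpl39l and Rps27l), and Rpl6l is annotated as a processed pseudogene. The 85 lie on 19 chromosomes.

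Ribosomal proteins assemble with ribosomal RNA in the nucleolus into a small subunit, which reads the mRNA, and a large subunit, which forms the peptide bond. Most of their mRNAs begin with a C followed by a run of pyrimidines, the terminal oligopyrimidine (TOP) element, through which the kinase complex mTORC1 and the RNA-binding protein Larp1 control their translation and stability. Most of the proteins are needed in equal numbers, and the mRNAs of the family are abundant in most cells and tend to vary together.

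The cells were stromal vascular cells, the part of fat tissue that is left when adipocytes are removed, taken from the inguinal depot under the skin of female C57BL/6N mice and sequenced singly with the 3' v3 chemistry of 10x Genomics. The young group had 4 libraries from mice 11 to 12 weeks old (3 months in the series text), and the old group had 3 libraries from mice 18 months old. No treatment, transgene or deletion is named for either group. The labels do not state how many mice a library holds, so p-values measure the spread between libraries, which may be technical.

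Each library held 52336665 to 99516882 unique molecular identifiers (UMIs, each standing for 1 captured mRNA molecule), and 37372 cells were kept in all. The median kept cell held 8790 to 13692 UMIs in the young and 5919 to 7651 UMIs in the old libraries, so that each old library was shallower than each young one. Pairs of libraries shared 4 to 23 cell barcodes. Cells were clustered without the ribosomal protein genes, and 12 classes were named from marker genes, while 17 of 47 clusters, with 5092 cells, stayed unnamed. Adipocytes, which the preparation removes, were not among the named classes. A class name stands for cells like that type, and the 5 main classes were progenitors (the fibroblast-like cells that can become adipocytes, 11790 cells), macrophages (5356), T cells (4418), endothelial cells (3827) and B cells (2045).

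A pair of libraries stood apart. Old replicate 3 held 1219 of the 2045 B cells and had the shallowest kept cells, and results that rest on it are given with and without it. Young replicate 1 held 70 T cells, the fewest of the 7, and 78.2% of its endothelial cells lay in a cluster led by Sox18, Plvap and Egfl7. In the other 6 libraries 73.5% to 96.1% of the endothelial cells lay in a cluster led by the capillary genes Gpihbp1, Cldn5 and Rbp7.

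Short sequences around the annotated transcription starts show runs of pyrimidines, the letters of the TOP element, at or near the start. The windows run from 15 bases before the start over 15 bases of transcript, and come from RefSeq on build GRCm38.p6, whose promoter table held 64 of the 85 genes. Capitals mark the longest run of a C followed by at least 5 pyrimidines between 10 bases before the start and the end of the window. Rps27 and Rpl39 are shown beside their paralogs because the copies went in opposite directions in lymphocytes, and Rpl38 and Rps26 because they had low p-values between ages.
Rps27 (chr3:90213634-90213663, minus strand): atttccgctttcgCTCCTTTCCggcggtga
Rps27l (chr9:66946071-66946100, plus strand): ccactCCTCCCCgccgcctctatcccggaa
Rpl39 (chrX:37085208-37085237, minus strand): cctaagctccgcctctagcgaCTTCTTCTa
Rpl39l (chr16:10170213-10170242, plus strand): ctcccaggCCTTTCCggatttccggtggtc
Rpl38 (chr11:114668565-114668594, plus strand): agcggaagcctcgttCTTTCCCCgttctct
Rps26 (chr10:128626492-128626521, minus strand): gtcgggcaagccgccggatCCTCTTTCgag

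In Rpl38 the run begins at the annotated start itself, and in Rps27 it spans the start. In Rps27l and Rpl39l the run lies before the start, and in Rpl39 and Rps26 it begins after the start. A C followed by at least 5 pyrimidines, searched on the transcript strand, lay between 10 bases before and 20 bases after an annotated start in 56.2% of the 64 genes, against 24.9% of 27025 genes in the table. The motif CCGGAAG, searched on both strands over 300 bases, was held by 40.6% of the 64 and by 9.93% of all genes. The motif AAGATGGC, which shares the letters AAG with it, was held by 9.38% and 3.19%. A match describes letters in the window and is not a measured site of transcription or binding.

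Lymphocytes gave the largest share of their UMIs to ribosomal protein genes. In T cells the share was 24.9% to 38.5% over 7 libraries, with a median of 29.7%, and in B cells it was 25.1% to 32.6%, with a median of 29.5%. Epithelial cells followed with a median of 25.7%, natural killer cells with 23.9% and dendritic cells, which present antigen, with 23.1%. The ranges of these classes overlapped with those of their neighbours in the order.

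Stromal, vascular and macrophage classes lay lower. The median share was 15.6% in progenitors, 13.3% in macrophages, 11.1% in endothelial cells and 10.7% in mural cells, the pericytes and smooth muscle cells of vessels. It was 9.47% in mast cells (5 libraries) and 8.47% in Schwann cells (3 libraries), and erythroid cells had 1.55% and 1.97% in 2 libraries. T cells held rank 1 or 2 in every library and B cells rank 1 to 3, while endothelial cells ranked anywhere from 6 to 10. The share is a fraction of a cell's UMIs, so it also moves when other genes move, and no test was made on it.

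**Figure D1:**
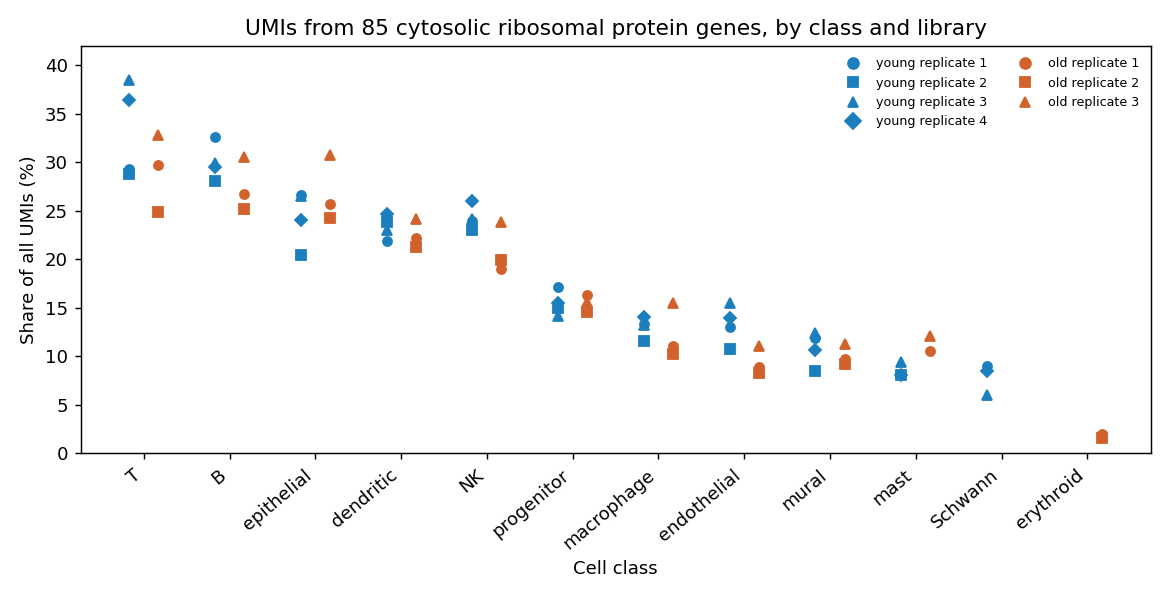
Share of all UMIs (%, y axis) from the 85 ribosomal protein genes in each cell class (x axis) and library (points, coloured by age, with the marker giving the replicate). T and B cells lie at 24.9% to 38.5%, progenitors at 14.2% to 17.2% and erythroid cells below 2%.

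Between ages the share overlapped in each of the 5 main classes. In endothelial cells it was 13.1%, 10.7%, 15.5% and 13.97% in the young and 8.94%, 8.29% and 11.1% in the old libraries. Old endothelial cells were lower on average, 9.44% ± 1.47 (SD, n = 3) against 13.3% ± 1.99 (SD, n = 4), but old replicate 3 lay above young replicate 2. Young replicate 3, the highest, held 83 endothelial cells, the fewest. In progenitors the means were 15.5% ± 1.29 in the young (SD, n = 4) and 15.5% ± 0.877 in the old libraries (SD, n = 3). In macrophages they were 13.1% ± 1.06 and 12.3% ± 2.80, and in B cells 30.05% ± 1.86 and 27.5% ± 2.79, with the same numbers of libraries. Of the other classes with both ages, the libraries did not overlap in mast cells alone, at 8.07%, 9.47% and 8.09% in 3 young and 10.5% and 12.1% in 2 old libraries, from sums of 23 to 60 cells.

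In T cells the share was 29.3%, 28.8%, 38.5% and 36.5% in the young and 29.7%, 24.9% and 32.9% in the old libraries, so that the young libraries fell into a lower and a higher pair. The T cells formed 3 clusters. One, led by Lef1, Satb1, Ccr7 and Tcf7, which are genes of naive T cells, had shares of 39.9%, 40.7% and 40.3% in young replicates 2, 3 and 4 and of 32.4%, 31.3% and 40.8% in the old libraries. That cluster made up 79.03% and 69.8% of the T cells of young replicates 3 and 4, and 31.1% of those of young replicate 2. It made up 17.4%, 3.59% and 33.9% of the T cells of the old libraries, and had under 20 cells in young replicate 1.

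The cluster led by Ccl5, Nkg7 and Cd8b1, genes of cytotoxic cells, had shares of 25.2% to 31.7% in the young and 25.2% to 31.5% in the old libraries. The cluster led by Icos, Ctla4 and Tnfrsf4, genes of activated and regulatory T cells, had 22.3% to 29.2% and 23.7% to 27.1%. Within both of these clusters the ages overlapped. Young replicates 3 and 4, where the Lef1 cluster was the larger part of the T cells, were also the libraries with the highest shares over all T cells. The part of the cluster makeup in the shares was not tested.

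In lymphocytes and endothelial cells the share was higher in the deeper cells. The cells of each class and library were split into 3 equal parts by UMIs per cell. The part with the most UMIs had the higher ribosomal share in 7 of 7 libraries for T, B and endothelial cells, in 6 of 7 for macrophages and in 4 of 7 for progenitors. In T cells the part with the fewest UMIs ranged from 18.8% to 32.6% and the part with the most from 28.2% to 40.98%. The part of depth in the shares was not tested. Sums thinned to equal mean UMIs per cell were used as an alternative in the tests of single genes. Thinning takes the same fraction from every gene of a sum, so on average it leaves the shares as they were.

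Levels differed widely between members. UMIs of a 3' assay count molecules and do not grow with transcript length, and levels are given, without further scaling, as UMIs per 10000 UMIs of the class. Averaged over the 5 main classes, the highest level belonged to Rps24 with 56.3, followed by Rplp1 with 50.5, Rps29 with 49.1, Rpl13 with 42.7 and Rps27 with 41.1. Of the 85 genes, 80 were above 1 and 73 above 10. The lowest were minor paralogs, with 0.455 for Rpl7l1, 0.0442 for Rpl39l, 0.0352 for Rpl6l and 0.0004 for Rpl3l, a copy known from muscle. Rpl10l, a copy known from testis, had 0 UMIs among 413755669 in the named classes, which allows a level of up to 7.25e-05 (3 counts of the total, counting error only).

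The leading gene changed with the class. In progenitors Rplp1, an acidic protein of the stalk that recruits elongation factors, led with 41.8 ± 4.06 UMIs per 10000 (SD, n = 7), followed by Rpl13 with 37.3 ± 4.06. Macrophages had Rps29, a small zinc-binding protein of the small subunit, in the lead with 50.3 ± 11.5, before Rplp1 with 39.9 ± 3.58. T cells had Rps24 first with 99.9 ± 12.6 and Rplp1 next with 86.7 ± 14.4. B cells also had Rps24 first, with 93.7 ± 10.4, and then Rps27, another zinc-binding protein of the small subunit, with 80.95 ± 15.2. In endothelial cells Rpl41, Rps29, Rplp1 and Rps24 had means between 26.1 and 27.4 and could not be ordered beyond their spread.

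How reads that match both a gene and one of its pseudogenes were counted is not given in the sources used here. The matrices list 17 ribosomal pseudogene features, 4 members (Rpl13a, Rpl13, Rpl36al and Rps10) overlap another gene on the same strand and 15 overlap one on the other strand. Levels of single members are uncertain to that extent.

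The class comparison asked whether members follow the total or stand apart. Each class was set against progenitors in 1 fit with all 5 classes (edgeR quasi-likelihood on summed UMIs, 2-sided, Benjamini-Hochberg adjustment over all genes, threshold 0.05). Log2 fold changes are TMM-scaled, and the contrasts share the progenitor sums. In T cells 79 of 83 tested members were higher and 2 lower than in progenitors, where 34.1% of all 13396 genes were higher and 41.2% lower (75.4% called). In B cells 79 were higher and 2 lower, where 31.4% and 40.3% of all genes were (71.8% called). The members' median log2 fold change was 0.95 in T cells and 0.83 in B cells, against -0.10 and -0.14 for all genes. The exceptions that were lower in both were the paralogs Rpl39l and Rps27l.

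Endothelial cells went the other way. Here 77 of 83 members were lower than in progenitors and the other 6 did not pass, where 34.6% of all genes were lower and 30.5% higher (65.1% called), with medians of -0.63 for the members and -0.02 for all genes. In the young libraries alone 49 were lower, and in the old libraries alone 77. These fits hold fewer libraries and their shares of all genes are not given here, so the counts do not compare the ages. Without scaling the median of all genes moved to 0.16, with 38.8% of all genes higher and 27.8% lower. The members' median was then -0.44, with 70 lower.

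In macrophages 60 members were lower and 2 higher than in progenitors, where 38.9% of all genes were lower and 32% higher (71% called), and the members' median was -0.38 against -0.07. This count depended on the libraries and on the clustering. It was 34 lower and 5 higher without old replicate 1, 34 lower and 6 higher without old replicate 2, 32 lower and 3 higher in the young libraries alone, and 44 lower and 4 higher with cells clustered on 30 neighbours in place of 15. The shares of all genes called in these fits are not given here.

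**Figure D2:**
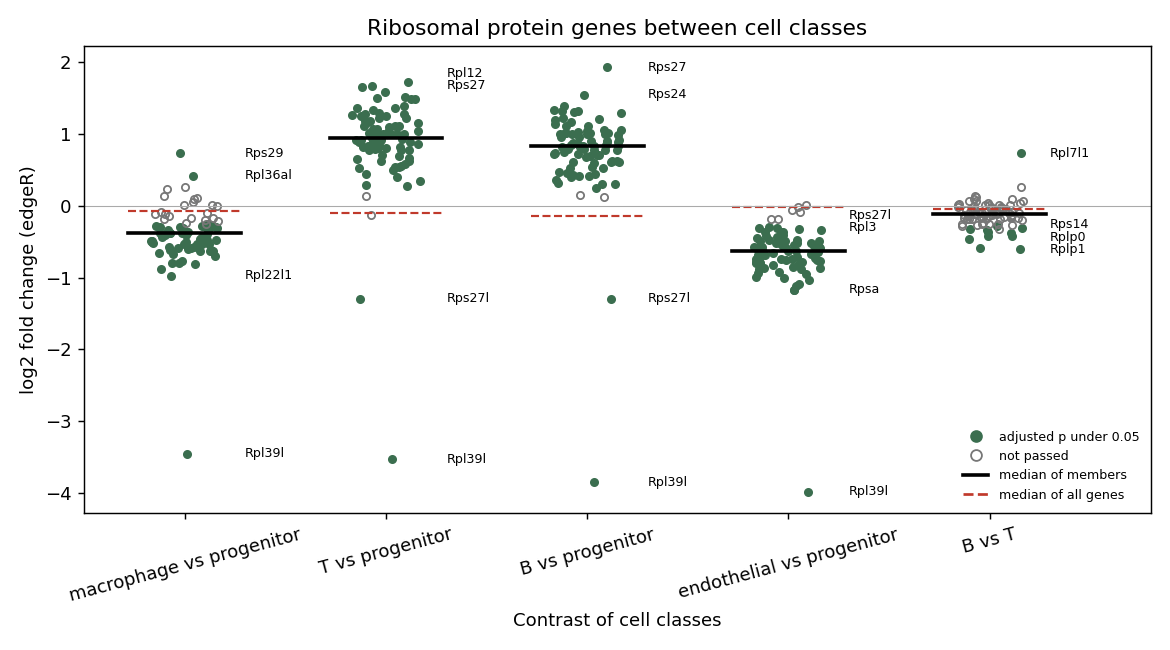
log2 fold change (y axis) of each ribosomal protein gene in 5 contrasts of cell classes (x axis), filled where the adjusted p was under 0.05, with the median of the members (black line) and of all genes (dashed line). Rpl39l lies at -3.45 to -3.98 in the 4 contrasts with progenitors, and Rps27l lies below 0 in T and B cells, where 79 members are called higher.

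Among small-subunit genes, Rps27 and Rps24 were raised most in lymphocytes. Rps27 was at 63.1, 65.99, 91.3 and 73.5 in the young and 61.9, 53.2 and 57.3 in the old libraries in T cells, in UMIs per 10000. B cells had it at 99.7, 86.7, 99.4 and 82.1 in the young and 65.9, 64.1 and 68.7 in the old libraries, and progenitors at 24.3, 21.5, 22.3 and 23.6 in the young and 19.8, 18.2 and 16.99 in the old libraries. Each T and B cell value lay above each progenitor value. The log2 fold change of Rps27 was 1.67 in T cells (SE 0.11; edgeR adjusted p = 4.27e-15) and 1.93 in B cells (SE 0.11; edgeR adjusted p = 2.29e-16), where it had the highest value of the 83. Rps24, which is mutated in some cases of Diamond-Blackfan anaemia, had 1.66 in T and 1.54 in B cells.

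Among large-subunit genes, Rpl12, which lies at the base of the stalk, was raised most in T cells. It was at 47.3, 48.8, 67.03 and 65.7 in the young and 61.96, 51.7 and 56.3 in the old libraries of T cells, in UMIs per 10000, and at 17.6, 14.9, 15.6 and 15.8 in the young and 21.7, 18.9 and 17.2 in the old libraries of progenitors, so that T cells had more in each library. On the log2 scale the difference was 1.72 (SE 0.12; edgeR adjusted p = 3.27e-14). Small rises that passed in T cells were those of Rpl28 (0.27), Rpl31 (0.35) and Rpl24 (0.41). In B cells they were those of Rpl31 (0.25), Rpl24 (0.31) and Rpl7a (0.32). The calls of some of these depended on single libraries, on the age of the libraries or on the processing. In T cells Rpl28 lost the call without young replicates 2, 3 or 4 or old replicate 3 (0.16 to 0.28, edgeR adjusted p of 0.0627 to 0.233). With all libraries Rpl28 also lost the call with RLE size factors, in thinned sums or at most 5% mitochondrial UMIs (edgeR adjusted p of 0.0547 to 0.102). DESeq2 gave it an adjusted p of 0.0882. In B cells Rpl31 lost the call without young replicates 2 or 4 or old replicate 3 (0.17 to 0.28, edgeR adjusted p of 0.0585 to 0.178). With all libraries Rpl31 also lost it with RLE size factors, in thinned sums, without the expression filter or at most 5% mitochondrial UMIs (edgeR adjusted p of 0.0587 to 0.462). DESeq2 gave it an adjusted p of 0.0717. In the young and the old libraries alone its edgeR adjusted p was 0.0676 and 0.19. Rpl24 lost the call without old replicate 3 (0.24, edgeR adjusted p = 0.062). At most 5% mitochondrial UMIs, Rpl24 and Rpl7a both lost the call in B cells (edgeR adjusted p of 0.23 and 0.338). Rpl24 also lost it in the young libraries alone (edgeR adjusted p = 0.109) and Rpl7a in the old libraries alone (edgeR adjusted p = 0.114). In the old libraries alone Rpl28 was not raised in T cells, with -0.018, and Rpl31 lost the call in T cells (0.13, edgeR adjusted p = 0.509).

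The lowest values among main copies in endothelial cells, against progenitors, belonged to Rpsa (-1.17), Rps26 (-1.17), Rpl10a (-1.11), Rpl10 (-1.08) and Rpl39 (-1.03). Rpsa is a small-subunit protein also known as the laminin receptor, and Rps26 sits where the mRNA leaves the ribosome. Rpsa was at 12.5, 10.8, 19.9 and 13.4 in the young and 8.35, 8.22 and 11.8 in the old libraries in endothelial cells and at 25.1, 21.7, 19.4 and 21.2 in the young and 25.3, 23.2 and 27.4 in the old libraries in progenitors, in UMIs per 10000. In 6 of the 7 libraries Rpsa was lower in endothelial cells, and in young replicate 3 it was slightly higher, with edgeR adjusted p = 6.19e-09 and SE 0.14. The called values nearest to 0 were in Rps27l (-0.29), Rpl3 (-0.31), Rps27 (-0.31), Rps25 (-0.32), Rps29 (-0.34) and Rpl29 (-0.37). These 6 calls depended on single libraries, on the scaling and on the age of the libraries. Without scaling all 6 lost the call (-0.171 to -0.105, edgeR adjusted p of 0.119 to 0.426). In the young libraries alone all 6 lost it too (-0.212 to -0.019, edgeR adjusted p of 0.212 to 0.934). Rps27l also lost it in the old libraries alone (-0.363, edgeR adjusted p = 0.127). Rps27l lost the call without young replicate 1 or old replicates 1 or 2 (-0.24 to -0.23, edgeR adjusted p of 0.0904 to 0.114). Rpl3 lost the call without young replicates 1 or 2 or old replicates 1, 2 or 3 (-0.28 to -0.19, edgeR adjusted p of 0.0528 to 0.238). Rps27 lost the call without old replicates 1 or 2 (-0.26 to -0.25, edgeR adjusted p of 0.0638 to 0.0796). Rps25 lost the call without old replicates 1 or 2 (-0.24 to -0.22, edgeR adjusted p of 0.0809 to 0.121). Rps29 lost the call without old replicates 1 or 2 (-0.27 to -0.26, edgeR adjusted p of 0.0597 to 0.0759). Rpl29 lost the call without old replicate 1 (-0.28, edgeR adjusted p = 0.0501).

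Rps29 and Rpl36al were the members raised in macrophages. Rps29 was at 52.7, 57.2, 62.4 and 63.8 in the young and 39.1, 37.9 and 38.9 in the old libraries in macrophages, in UMIs per 10000, and at 33.9, 31.3, 32.5 and 29.6 in the young and 28.1, 26.6 and 21.7 in the old libraries in progenitors. Macrophages had more in each library, and the log2 fold change was 0.73 (SE 0.11; edgeR adjusted p = 7.36e-07). Rpl36al had 0.42 (SE 0.11; edgeR adjusted p = 0.000876), but it lost the call in the old libraries alone (0.297, edgeR adjusted p = 0.14). Rpl22l1 (-0.98), the stalk base protein Rplp0 (-0.89), Rps2 (-0.81), Rpl15 (-0.80) and Rpl13 (-0.79) were lower, besides Rpl39l.

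The stalk proteins differed between the lymphocyte classes. B cells against T cells gave 1 higher and 11 lower members of 83, where 15.1% of all genes were higher and 18.2% lower (33.4% called). The stalk was lower in B cells, with Rplp1 at -0.61 (SE 0.11; edgeR adjusted p = 3.69e-05), Rplp0 at -0.58 (SE 0.14; edgeR adjusted p = 0.00141) and Rplp2 at -0.38 (SE 0.10; edgeR adjusted p = 0.00459) on the log2 scale. Rplp1 was at 87.1, 76.2, 107 and 102 in the young and 80.4, 65.5 and 88.5 in the old libraries in T cells, in UMIs per 10000, and at 69.2, 53.8, 58.6 and 56.5 in the young and 54.1, 52.2 and 56.7 in the old libraries in B cells. Each library had more Rplp1 in T than in B cells.

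Rpl5, which binds the 5S ribosomal RNA (-0.47), Rpl22l1 (-0.42), Rpl12 (-0.42), Rps16 (-0.37), Rps23 (-0.34), Rpl23a (-0.32), Rps6 (-0.31) and Rps14 (-0.29) were also lower in B cells, and Rpl7l1 (0.73) was higher. The calls of Rplp0, Rplp1, Rplp2, Rpl5, Rpl12 and Rpl7l1 held with each of the 7 libraries left out in turn, but some depended on the age of the libraries or on the cells kept. In the old libraries alone the edgeR adjusted p was 0.124 for Rplp0, 0.0974 for Rplp2 and 0.132 for Rpl5. In the young libraries alone it was 0.0556 for Rpl12 and 0.0862 for Rpl7l1, and with cells of at most 5% mitochondrial UMIs it was 0.0578 for Rpl12. The remaining calls did not hold throughout. Rpl22l1 lost the call without young replicate 3 (-0.35, edgeR adjusted p = 0.0559). Rps16 lost the call without young replicate 4 (-0.31, edgeR adjusted p = 0.0618). Rps23 lost the call without young replicates 3 or 4 (-0.28, edgeR adjusted p of 0.053 to 0.0634). Rpl23a lost the call without young replicates 2, 3 or 4 (-0.33 to -0.25, edgeR adjusted p of 0.059 to 0.143). Rps6 lost the call without young replicates 2, 3 or 4 or old replicate 1 (-0.34 to -0.23, edgeR adjusted p of 0.0625 to 0.201). Rps14 lost the call without young replicates 2, 3 or 4 (-0.29 to -0.22, edgeR adjusted p of 0.0682 to 0.137). Over the alternatives 4 to 24 members were called. The count was 24 without young replicate 1, the library with the fewest T and B cells. The shares of all genes called in these alternatives are not given here.

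The minor paralogs followed patterns of their own. Rpl39l codes for a copy of Rpl39, a small protein that lines the exit tunnel for the new peptide, and the coding sequences of the copies are identical at 85% of 153 positions. Its mRNA was at 0.237, 0.142, 0.198 and 0.127 in the young and 0.182, 0.216 and 0.0936 in the old libraries of progenitors, in UMIs per 10000, from a total of 3069 UMIs. Over the same libraries macrophages had 77 UMIs of Rpl39l, endothelial cells 54, T cells 42 and B cells 10, with at most 0.0334 per 10000 in a library. Each progenitor value lay above each of these. Against progenitors the log2 fold change was -3.45 in macrophages (SE 0.27), -3.53 in T cells (SE 0.31), -3.85 in B cells (SE 0.42) and -3.98 in endothelial cells (SE 0.29), with edgeR adjusted p of 1.52e-09 or lower.

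Among the other classes mural cells, with 62 UMIs and a median level of 0.0863, reached the range of progenitors in some libraries. Epithelial cells had 14 UMIs, dendritic cells 13 and natural killer cells 2, and mast, Schwann and erythroid cells had 0. Rpl39, the main copy, was at 23.99 ± 3.41 UMIs per 10000 (SD, n = 7) in progenitors, 17.2 ± 2.79 in macrophages, 13.9 ± 4.47 in endothelial cells, 47.7 ± 7.04 in T cells and 45.4 ± 4.101 in B cells. The main copy was higher in lymphocytes than in progenitors and the paralog lower.

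Rps27l, a p53-responsive copy of Rps27 with 76.2% identical coding positions over 252 bases, was lower in the classes where Rps27 was high. It was at 1.52, 1.06, 0.965 and 1.05 in the young and 0.791, 1.02 and 0.912 in the old libraries of T cells, in UMIs per 10000, and at 3.001, 2.36, 2.26 and 2.14 in the young and 2.502, 2.87 and 2.51 in the old libraries of progenitors. Each T cell and each B cell value lay below each progenitor value. The log2 fold change was -1.29 in T cells (SE 0.12; edgeR adjusted p = 1.89e-11) and -1.30 in B cells (SE 0.12; edgeR adjusted p = 5.46e-11). The highest levels were in epithelial cells, at 3.84 to 5.58, and dendritic cells, at 3.74 to 5.52, and these were not tested.

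Rpl22l1 is a copy of Rpl22, an RNA-binding protein needed in T cell development. It was at 4.32, 3.18, 2.93 and 2.81 in the young and 3.43, 3.06 and 3.84 in the old libraries of macrophages and at 7.65, 7.05, 6.31 and 5.37 in the young and 6.93, 5.99 and 5.88 in the old libraries of progenitors, in UMIs per 10000, and each progenitor value was the higher one. In T cells it was at 9.32 ± 1.41 (SD, n = 7) and Rpl22 at 20.02 ± 3.16. The log2 fold change of Rpl22l1 in macrophages was -0.98 (SE 0.13; edgeR adjusted p = 7.92e-08). Rpl36al, a copy of Rpl36a with 87.7% identical coding positions over 318 bases, ranged from 4.17 to 6.42 in macrophages and 3.36 to 4.38 in progenitors, and was highest in epithelial (7.22 to 9.98) and dendritic cells (8.34 to 9.91). Rpl7l1 lay between 0.287 and 0.846 in the 5 main classes.

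**Figure D3:**
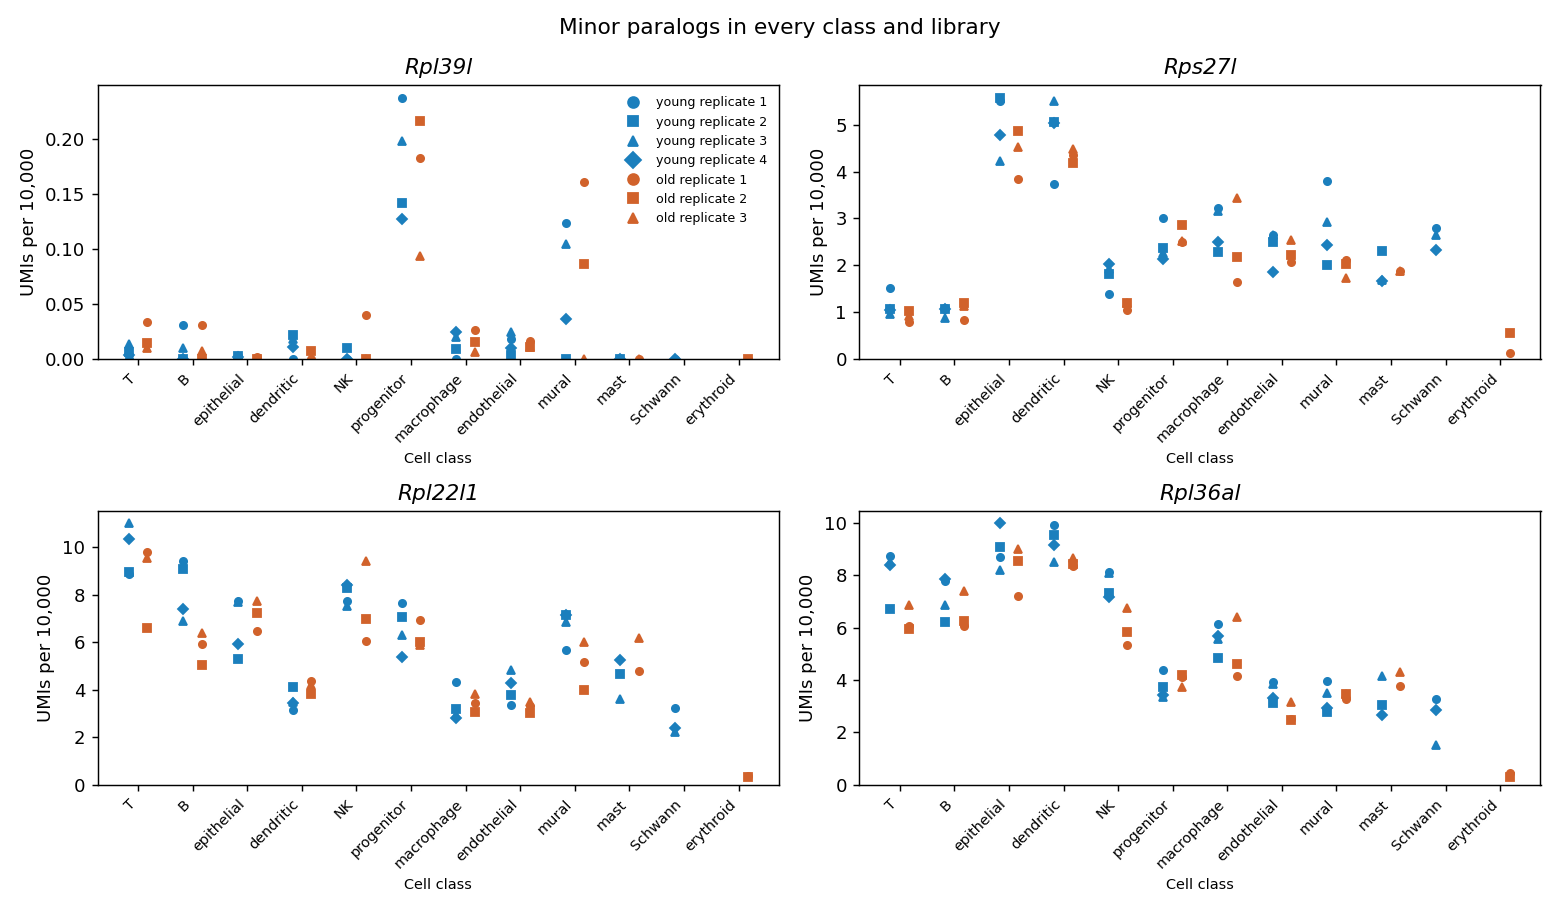
Levels (UMIs per 10000, y axis) of 4 minor paralogs in each cell class (x axis) and library (points, coloured by age, with the marker giving the replicate). Rpl39l is highest in progenitors at 0.0936 to 0.237, and Rps27l and Rpl36al are highest in epithelial and dendritic cells.

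The cells that make up a class differed between the ages. A cluster led by Smoc2, Gsn and Cxcl14 held 45.4% to 46.5% of the progenitors in the old libraries against 2.69% to 4.99% in the young libraries. A cluster led by H19, Scg3 and Postn held 33.7% to 49.6% of the progenitors in young replicates 2 to 4, 2.14% in young replicate 1 and 3.16% to 3.94% in the old libraries. In young replicate 1 most progenitors lay in clusters led by Pi16 and Cxcl13 (33.7%), Crabp1 and Mme (32.1%) and Cilp and Igfbp3 (27.2%). In macrophages the cluster led by Fcna held 38.03% to 58.8% in the old and 23.9% to 49.1% in the young libraries, and a cluster led by H2-M2 held 46.9% in young replicate 1. Values in single clusters, a comparison added after the data had been seen, are therefore given beside the results. The B cells formed 1 cluster.

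The age comparison asked which members differ between old and young cells of 1 class, with 1 edgeR quasi-likelihood fit per class over all genes. The test called 0 of 83 members in progenitors, 0 of 83 in macrophages, 0 of 82 in T cells, 0 of 81 in B cells and 0 of 82 in endothelial cells at an adjusted p of 0.05. Of all genes 1.85%, 0.06%, 0.21%, 0.943% and 0.138% were called in these classes. At an unadjusted p under 0.05 there were 2, 0, 1, 5 and 23 members, where 17.3%, 4.47%, 7.84%, 8.33% and 9.30% of all genes were so. The members' share was above that of all genes in endothelial cells alone of the 5. DESeq2, which called 7.19%, 0.625%, 0.810%, 1.36% and 1.82% of all genes, called Rpl37a in progenitors, Rps26, Rpl37a, Rpl39 and Rpl38 in endothelial cells, all lower in the old libraries, and 0 in the other classes.

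The members' median log2 fold change, old over young, was 0.05 in progenitors, -0.01 in macrophages and -0.12 in B cells, with 35 of 83, 43 of 83 and 64 of 81 below 0. It was -0.25 in T cells, with 81 of 82 below 0, and -0.47 in endothelial cells, with 82 of 82 below 0. The medians of all genes lay between -0.002 and 0.02. Single libraries moved some of these medians across 0. Without old replicate 3 the median was -0.37 in macrophages, -0.47 in T cells and -0.29 in B cells, and -0.02 in progenitors. Without old replicate 2 it was 0.19 in macrophages, -0.06 in T cells, 0.01 in B cells and 0.12 in progenitors.

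Other single libraries also moved these medians. Without old replicate 1 it was 0.12 in macrophages, -0.06 in B cells and 0.01 in progenitors. Leaving out young replicates 1, 2, 3 and 4 in turn gave -0.35, -0.31, -0.11 and -0.16 in T cells, -0.04, -0.06, 0.004 and 0.04 in macrophages, -0.07, -0.14, -0.15 and -0.11 in B cells and 0.06, 0.05, -0.002 and 0.07 in progenitors. In endothelial cells the 7 leave-one-out medians stayed between -0.61 and -0.35. In the T cell clusters led by Ccl5 and by Icos, each tested alone, the medians were 0.01 and -0.01, with 0 members called.

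Endothelial cells had the most members with low p-values. Rps26 was at 10.8, 8.12, 10.9 and 9.49 in the young and 5.34, 5.16 and 6.52 in the old libraries of this class, in UMIs per 10000. Rpl39 was at 16.5, 14.7, 21.4 and 15.2 and at 9.21, 8.82 and 11.2, in the same order, and Rpl38, a protein known for its part in the translation of Hox mRNAs, at 14.7, 13.6, 17.8 and 14.5 and at 8.75, 9.27 and 10.5. In each of these genes every old library lay below every young one. The log2 fold changes were -0.77 for Rps26 (SE 0.21; edgeR adjusted p = 0.2), -0.78 for Rpl39 (SE 0.23; edgeR adjusted p = 0.253) and -0.66 for Rpl38 (SE 0.21; edgeR adjusted p = 0.305). DESeq2 gave adjusted p of 0.0103, 0.0288 and 0.0426 for them.

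Old libraries all lay below the young ones in 31 of 82 members in endothelial cells, where 5.24% of all genes did so and 3.47% lay above. The clusters differed between libraries here, as described for young replicate 1. In the Gpihbp1 cluster alone, tested in the 6 libraries other than young replicate 1, 81 of 81 members were below 0 with a median of -0.51, and 0 were called (24 at an unadjusted p under 0.05). Over all endothelial cells 9.3% of all genes had such a p, and the share within this cluster is not given here. Median depth was 7687 to 14184 UMIs per cell in young and 7773 to 8054 in old endothelial cells. In sums thinned to equal mean UMIs per cell the members' median was -0.47, but such thinning lowers all genes alike and cannot test depth.

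In the other classes the ages separated in fewer members. Old libraries all lay below the young ones in 9 of 83 members in progenitors (9.17% of all genes), 3 of 83 in macrophages (2.36%), 6 of 82 in T cells (2.26%) and 10 of 81 in B cells (2.95%). All old libraries lay above the young ones in 0 members of any of the 5 classes, and in 7.23%, 2.26%, 4.93% and 4.81% of all genes in these 4 classes. Rpl37a, Rps27 and Rps29 lay below in all 5 classes, Rpl38 in 4, and Rpl37, Rpl41 and Rps26 in 3. Within single clusters this held for Rpl37a in the Ccl5 and Icos clusters of T cells, the Fcna cluster of macrophages and the Gpihbp1 cluster. Rps27 overlapped between ages in the Ccl5, Icos and Fcna clusters (log2 fold changes of -0.12, -0.074 and -0.315) and lay below in the Gpihbp1 cluster. Rps29 overlapped in the Ccl5 cluster alone of these (-0.276). Rpl38 and Rpl41 overlapped in the T cell clusters.

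Rpl37a, a zinc-binding protein of the large subunit, was at 34.2, 32.8, 29.6 and 29.8 in the young and 24.5, 25.2 and 20.6 in the old libraries of progenitors, in UMIs per 10000. Its log2 fold change there was -0.42 (SE 0.15; edgeR adjusted p = 0.188; DESeq2 adjusted p = 0.00768). In B cells it was at 64.7, 56.1, 61.5 and 53.2 and at 44.7, 46.8 and 42.4, in the same order, with -0.43 (SE 0.17; edgeR adjusted p = 0.47). Rpl41, which codes for the shortest ribosomal protein, had -0.39 in progenitors (SE 0.17; edgeR adjusted p = 0.271).

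Within single clusters of progenitors the edgeR test also called 0 members. In the Smoc2 cluster the members' median was -0.13, with 66 of 82 below 0, in the Cilp cluster 0.12, with 19 of 82 below 0 and in the H19 cluster 0.10, with 19 of 82 below 0. At an unadjusted p under 0.05 there were 6, 4 and 2 members. Over all progenitors 17.3% of all genes were so, and the shares within these clusters are not given here. Rpl37a was at 17.5 to 21.0 in old and 26.5 to 30.0 in young libraries of the Smoc2 cluster, in UMIs per 10000, and its log2 fold change was -0.55 (SE 0.17, edgeR adjusted p = 0.161). It was -0.37 (SE 0.16, edgeR adjusted p = 0.428) in the Cilp and -0.32 (SE 0.18, edgeR adjusted p = 0.398) in the H19 cluster. Each old library lay below each young one for Rpl37a and Rps27 in all 3 clusters. For Rps29, Rpl38 and Rpl41 that was so in the Smoc2 and Cilp clusters, and the libraries overlapped in the H19 cluster.

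Rps29 in macrophages, with the values given above, had a log2 fold change between ages of -0.61 (SE 0.27; edgeR adjusted p = 1). In T cells it was at 69.4, 70.5, 110 and 86.9 in the young and 61.4, 50.8 and 52.9 in the old libraries, with -0.69 (SE 0.31; edgeR adjusted p = 0.629). Rps27 in B cells, also given above, had -0.49 (SE 0.17; edgeR adjusted p = 0.339), and Rps29 had -0.48 (SE 0.17; edgeR adjusted p = 0.355). The old libraries lay below the young ones in each of these, but the test called 0 of them. In the Fcna cluster of macrophages alone Rps29 was at 36.8 to 42.6 in old and 54.03 to 72.4 in young libraries, with -0.68 (SE 0.29, edgeR adjusted p = 0.604), and the members' median was 0.02, with 35 of 82 below 0.

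In B cells 1 library decided whether members were called. Without old replicate 3 the edgeR test called 6 of 81 members, all lower in the old libraries, with Rps27 at -0.61 (edgeR adjusted p = 0.00965) and Rps15a, Rps29, Rps26, Rpl35a and Rpl37a at -0.59 to -0.48 (edgeR adjusted p of 0.0197 to 0.0471). Of all genes 2.88% were then called. Leaving out any other library gave 0.

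**Figure D4:**
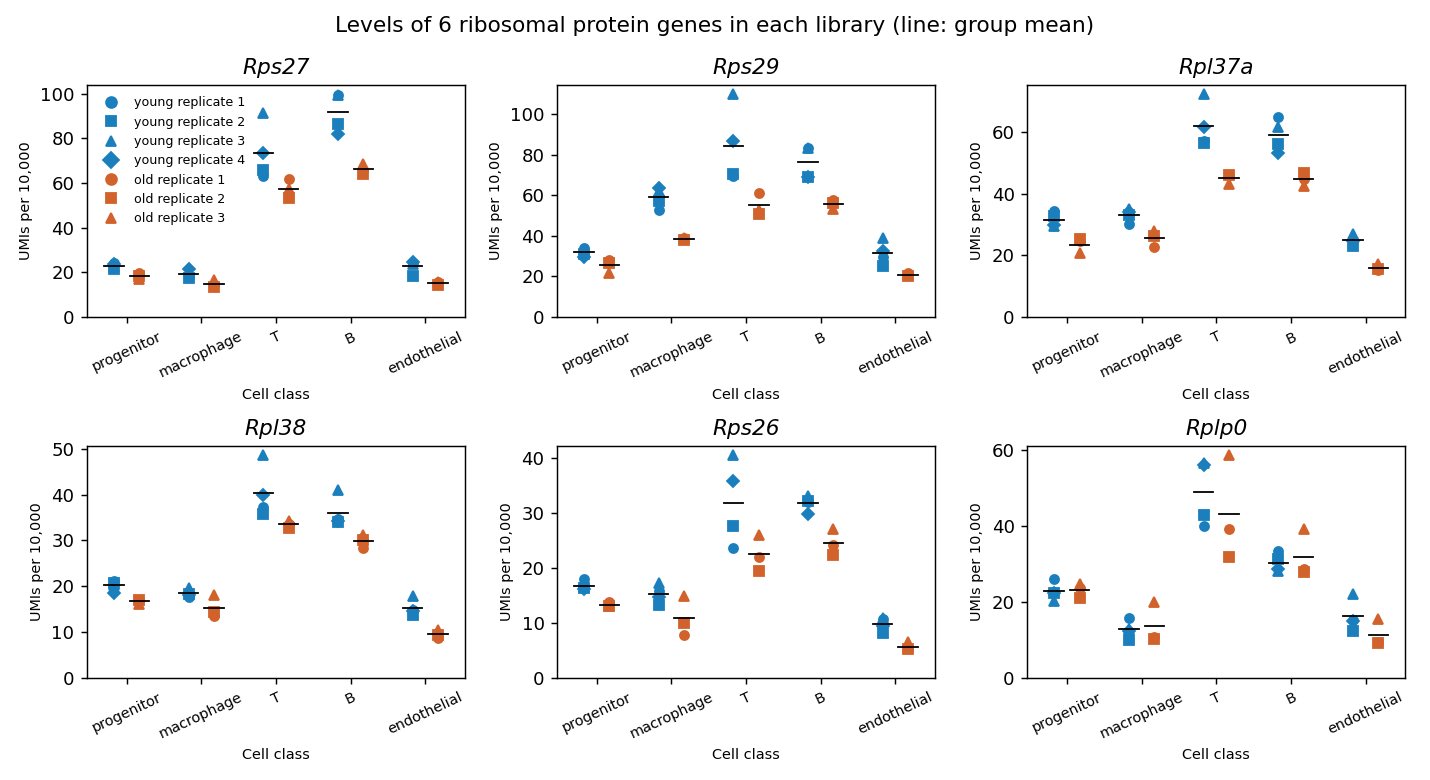
Levels (UMIs per 10000, y axis) of 6 ribosomal protein genes in the 5 main classes (x axis), per library (points, coloured by age, with the marker giving the replicate) with group means (lines). Rpl37a, Rps27 and Rps29 lie lower in each old library than in each young one in all 5 classes, while Rplp0 overlaps between ages in all 5. Within single clusters, not drawn here, Rps27 overlaps between ages in T cells and macrophages, and Rps29 in the Ccl5 cluster of T cells.

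The stalk proteins and Rpsa overlapped between ages in most classes. Rplp0 was at 26.1, 22.4, 20.1 and 22.4 in the young and 23.7, 20.9 and 24.6 in the old libraries of progenitors, in UMIs per 10000. Rplp1 was at 42.9 ± 5.25 in young (SD, n = 4) and 40.5 ± 1.79 in old progenitors (SD, n = 3). Rpsa was at 21.8 ± 2.37 and 25.3 ± 2.11 there, and at 14.1 ± 3.99 and 9.46 ± 2.03 in endothelial cells. Rplp2 lay lower in each old library in B cells (31.7 to 34.6 against 35.03 to 42.7) and in endothelial cells (11.4 to 12.4 against 12.9 to 20.1), and Rplp1 in endothelial cells (19.6 to 24.8 against 25.1 to 35.5), without passing the edgeR test.

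Of the 7 members that lay below in at least 3 classes, 6 have short coding sequences, and the exception was Rps26 with 345 nucleotides. A set of 11 members code for at most 300 nucleotides (Rpl41, Rpl39, Rpl39l, Rps29, Rps28, Rpl38, Rps21, Rps27, Rps27l, Rpl37a and Rpl37), and this set was chosen after the values had been seen, so no test was made on it. Across members, Spearman's rho between coding length and the log2 fold change between ages was 0.63 for progenitors and 0.72 for macrophages, with 82 genes each. With 81 genes it was 0.57 for T cells, 0.69 for B cells and 0.37 for endothelial cells. Genes are not independent replicates, and the points share libraries, depth and the total of the family, so these are descriptions. Without old replicate 3 rho was 0.41, 0.60, 0.27, 0.37 and 0.11, in the order just given. In the Smoc2, Cilp and H19 clusters of progenitors it was 0.65, 0.68 and 0.47, and in the Fcna cluster of macrophages 0.74. In the Ccl5 and Icos clusters of T cells rho was 0.45 and 0.62, and in the Gpihbp1 cluster of endothelial cells 0.39.

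The short members had a median log2 fold change of -0.23 in progenitors, -0.25 in macrophages, -0.40 in T cells, -0.33 in B cells and -0.61 in endothelial cells. The longer members had 0.08, 0.01, -0.22, -0.10 and -0.45, in the same order. Within the Ccl5 and Icos clusters of T cells, each taken alone, the short members had medians of -0.17 and -0.25. The longer members had 0.03 and 0.003 there. Other coding genes with at least 1 UMI per 10000 were split in the same way. Those with at most 300 coding nucleotides had medians of -0.09, -0.05, -0.28, -0.12 and -0.13, and the longer ones 0.07, 0.04, 0.05, 0.06 and 0.05. In each of the 5 classes the short genes outside the family thus had the lower median too. In T cells 65 of 80 such short genes were below 0, but the cluster makeup of T cells differed between libraries. Values within single T cell clusters are not given for these genes. Over all kept cells the old libraries were also the shallower ones, but within each of the 5 classes mean UMIs per cell overlapped between ages. The part of depth in this pattern was not tested. In the thinned sums rho was 0.63, 0.74, 0.57, 0.69 and 0.37. Thinning lowers all genes of a sum alike, so these values cannot show a part of depth.

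**Figure D5:**
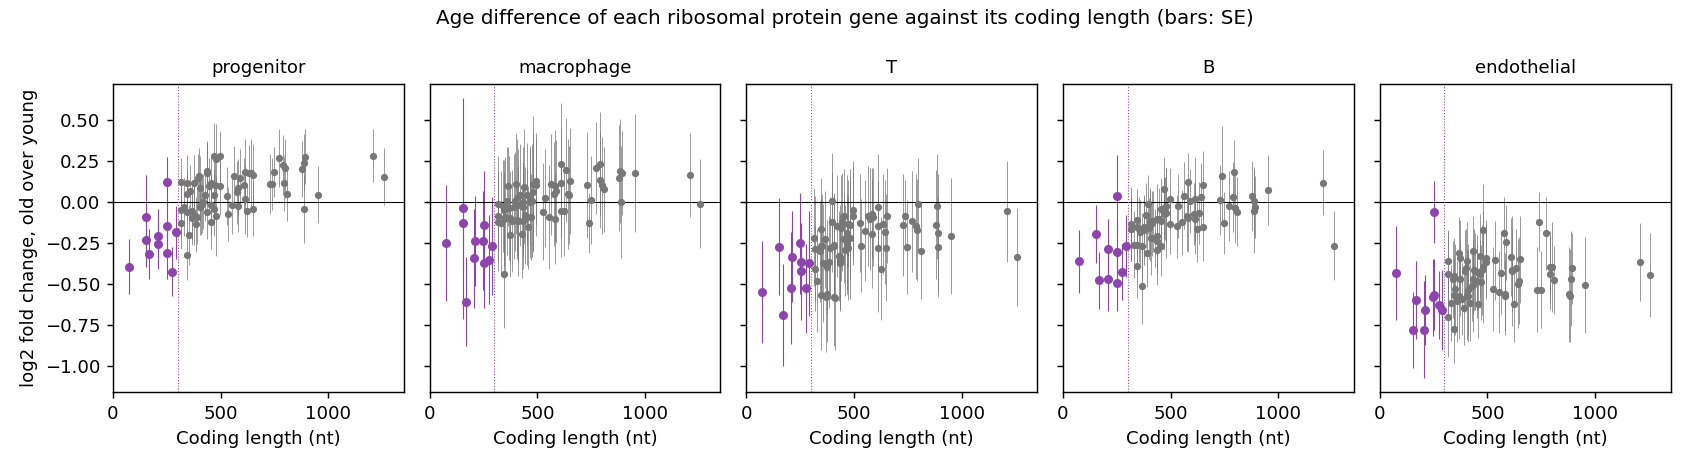
log2 fold change between ages (old over young, y axis, bars are SE) of each ribosomal protein gene against its coding length in nucleotides (x axis), 1 panel per class. The members of at most 300 nucleotides (purple, left of the dotted line) have medians of -0.23 to -0.61.

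As a share of all ribosomal protein UMIs, the short members gave 13.8%, 14.5%, 15.8% and 13.7% in the young and 11.8%, 12.5% and 10.9% in the old libraries of progenitors. In macrophages they gave 16.2%, 18.4%, 19.3% and 17.5% and 14.7%, 16.1% and 13.5%. The old libraries all lay below the young ones in 6 of the 10 classes with at least 2 libraries of each age, and overlapped with them in T, natural killer, endothelial and mural cells. Old replicate 3 was the lowest library in 10 of 10 classes. Without it the difference of the means, old minus young, was -2.26 percentage points in progenitors and -2.46 in macrophages, against -2.69 and -3.10 with it. The difference shrank by over 1.5 times in 4 classes. It went from -1.06 to -0.572 points in endothelial cells, from -2.10 to -1.01 in mast cells, from -1.65 to -1.001 in T cells and from -1.66 to -1.03 in natural killer cells.

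Whether the age difference itself differed between classes was tested by an interaction term against progenitors in 1 edgeR fit. The test called 0 of 83 members in macrophages, T, B and endothelial cells, where 0.49%, 1.71%, 1.28% and 1.06% of all genes were called. At an unadjusted p under 0.05 there were 0, 3, 0 and 35 members, where 10.0%, 14.5%, 13.3% and 11.1% of all genes were so, and no other tool was run on this term. Of the endothelial values 81 of 83 were negative with a median of -0.43, against 0.04 for all genes. The lowest p-values belonged to Rpsa (-0.70; SE 0.25; edgeR adjusted p = 0.215), Rpl30 (-0.60; SE 0.22; edgeR adjusted p = 0.24) and Rps2 (-0.66; SE 0.24; edgeR adjusted p = 0.244). In T cells Rpl36al (-0.45) and Rpl28 (-0.49) were among the 3 with the lowest p-values.

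Genes that work with the ribosome were counted from lists, all against progenitors. Among 21 translation partners (elongation and initiation factors, the nascent chain factors Naca and Btf3, and the fusion gene Fau among them), 17 were higher in T cells and 16 in B cells, 17 were lower in endothelial cells, and in macrophages 3 were higher and 12 lower, while the others did not pass. Over all genes the same fits called 34.1% higher and 41.2% lower in T cells, 31.4% and 40.3% in B cells, 30.5% and 34.6% in endothelial cells and 32% and 38.9% in macrophages, which is the background of each list below. The medians in these 4 classes were 0.57, 0.39, -0.51 and -0.28. Fau, whose product includes the small-subunit protein Rps30, had log2 fold changes of 1.41 in T cells, 1.81 in B cells and 0.52 in macrophages (edgeR adjusted p of 3.28e-05 or lower). Between ages edgeR and DESeq2 each called 0 of 21 in every class. In the interaction term Eif4b, which helps the helicase of initiation, was called in B cells (0.89, edgeR adjusted p = 0.0294), a call that was lost in 5 of 7 fits with 1 library left out (edgeR adjusted p of 0.0663 to 0.135). In the age fits 21 of 21 were below 0 in endothelial cells, with a median of -0.32. There 4 had an unadjusted p under 0.05, against 2 in progenitors and 0 in the other 3 classes. Of all genes 17.3%, 4.47%, 7.84%, 8.33% and 9.3% were so in progenitors, macrophages, T, B and endothelial cells. In the endothelial interaction term 19 of 21 were below 0, with a median of -0.258 and 6 at an unadjusted p under 0.05 (11.1% of all genes).

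Of 20 ribosome biogenesis factors, which build the subunits in the nucleolus, 13 were higher and 2 lower in T cells, 12 and 1 in B cells, 1 and 8 in endothelial cells and 4 and 6 in macrophages. Nop56, a core protein of box C/D particles, was higher by 1.40 in T and 1.09 in B cells on the log2 scale (edgeR adjusted p of 7.07e-08 or lower). Between ages edgeR called 0 in each class, with medians of 0.39 in progenitors and -0.26 in T cells. At an unadjusted p under 0.05 there were 8 in progenitors, 1 in T cells, 1 in macrophages and 0 in B and endothelial cells, where 17.3%, 7.84% and 4.47% of all genes were so in the first 3. The cluster makeup of progenitors and T cells differed between libraries, and values within single clusters are not given for this list. Mybbp1a, a nucleolar protein, was called in the interaction term of T cells (-0.81, edgeR adjusted p = 0.0491), and lost the call in 5 of 7 fits with 1 library left out (edgeR adjusted p of 0.0871 to 0.394). Between ages DESeq2 called 1 in progenitors and 0 elsewhere.

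Mitochondrial ribosomal protein genes, which serve the separate ribosome of mitochondria, were called in both directions between classes. Of 76 tested, 21 were higher and 30 lower in T cells, 18 and 21 in B cells, 15 and 21 in endothelial cells and 16 and 20 in macrophages, with medians of -0.12, -0.04, 0.03 and -0.09, against -0.10, -0.14, -0.02 and -0.07 for all genes. In old T cells 66 of 76 were below 0, with a median of -0.25 against 0.01 for all genes, and in the T cell interaction term the median was -0.26, with 1 gene called higher and 1 lower of 77. The cluster makeup of T cells differed between libraries, and values within single T cell clusters are not given for this list. Between ages edgeR and DESeq2 called 0 in each class. At an unadjusted p under 0.05 there were 5, 0, 10, 1 and 1 in the 5 classes, in the order used above for ages. Of all genes 17.3%, 4.47%, 7.84%, 8.33% and 9.3% were so.

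Of the 19 mTORC1 and TOP regulators, 8 were higher and 4 lower in T cells, 9 and 4 in B cells, 4 and 9 in endothelial cells and 2 and 7 in macrophages. The background over all genes is the one given with the translation partners. Eif4ebp1, a translation repressor that mTORC1 phosphorylates, was lower in T cells (-2.51) and B cells (-1.86; edgeR adjusted p of 2.84e-10 or lower for both). Between ages Sesn3, a sestrin that restrains mTORC1, fell in old progenitors, with a TMM-scaled log2 value of -1.45 (SE 0.15, edgeR adjusted p = 0.00475). It was at 0.8998, 0.845, 0.914 and 0.711 in the young and 0.286, 0.366 and 0.271 in the old libraries of this class, in UMIs per 10000, with no overlap. The other tested genes of this list did not pass between ages in any class, and DESeq2 called only Sesn3. At an unadjusted p under 0.05 there were 3, 2, 1, 3 and 1 in progenitors (Sesn3 included), macrophages, T, B and endothelial cells. Of all genes 17.3%, 4.47%, 7.84%, 8.33% and 9.3% were so in these classes. In the interaction term Sesn3 was called in T cells (1.39; edgeR adjusted p = 0.00389) and B cells (1.65; edgeR adjusted p = 0.00262), and the call in T cells was lost without old replicate 1 (1.21, edgeR adjusted p = 0.0958). Within single progenitor clusters Sesn3 had -1.62 (SE 0.20, edgeR adjusted p = 0.00416) in the Smoc2 cluster, -0.88 (SE 0.30, edgeR adjusted p = 0.304) in the Cilp cluster and -1.06 (SE 0.29, edgeR adjusted p = 0.126) in the H19 cluster. Each old library lay below each young one in these 3 clusters, and the call held in the Smoc2 cluster alone.

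The genes whose level over the 35 library by class sums was most like the summed members were Gnb2l1 (Pearson r = 0.96), the ribosome-bound scaffold also called Rack1, Snrpg (0.95), a core protein of the spliceosome, Satb1 (0.95), a chromatin organiser of T cells, Naca (0.95) and Sept6 (0.95), among 8798 genes with a mean of at least 10 CPM. The sums share libraries and classes, and the 35 points fall into 5 classes, so these are descriptions.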

How the data were processed

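The deposited values are raw UMI counts per gene and cell barcode, which the authors made with Cell Ranger 4.0.0 (genome mm10); the submitters' processing notes name both. The deposited matrices hold filtered barcodes with at least 500 UMIs. Strand use in counting is not given in the sources used here.

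Cells needed 500 UMIs, 300 genes and at most 15% mitochondrial UMIs, and likely doublets were removed by scoring against simulated doublets (2 per cell, with the expected rate set by the number of barcodes). Cells of all libraries were clustered together without batch correction (2000 variable genes without members and ribosomal pseudogenes, 30 principal components, 15 neighbours, Leiden at resolution 1; scanpy 1.11.5, igraph 0.11.9). Classes were named from listed markers. The clustering and the naming thresholds were settled after the data had been seen, and classes are rebuilt, not the authors' own.

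Counts were summed per library and class (20 cells or more) and tested with edgeR 4.0.16 (quasi-likelihood, TMM, filterByExpr, in R 4.3.3) over all genes with Benjamini-Hochberg adjustment, without a block between ages and with the library as a block between classes and in the interaction term. DESeq2 1.42.0, other scalings, filters, cell sets and leaving out each library were alternatives. The edgeR steps were checked on simulated data. Depth limits the low paralogs most. Ribosomal shares were not tested.

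The members, lists and tests were chosen with earlier results of these data known. Named were the 6 highest and 6 lowest called members of each class contrast, the 3 with the lowest p where none passed, the minor paralogs with their main copies, the stalk proteins and Rpsa, the 5 highest and 5 lowest in level, and up to 4 genes per list. A few genes that this rule names are not reported here. Rpl35a, Rpl37, Rps10, Rps15a, Rps21 and Rps28 were named after their values were seen. Coding lengths and gene overlaps come from GENCODE on the same build.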

Additional observations from a re-analysis of the deposited data

Results flagged for a closer look

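Among the 4 young libraries, 1 library was set apart from the other 3 in 5 gene levels, by Dixon's test at the 95% level. The test was made on 94 sets of 4 libraries, and chance sets apart about 1 in 20 sets. All values are UMIs per 10000. Rps27 in endothelial cells was low in young replicate 2, at 18.2, where the other young libraries had 23.9 to 24.7. Rpl38 in B cells was high in young replicate 3, at 41.0, where the other young libraries had 34.1 to 34.8. Rps27l in B cells was low in young replicate 3, at 0.872, where the other young libraries had 1.06 to 1.08. Rplp1 in progenitors was high in young replicate 1, at 50.7, where the other young libraries had 39.8 to 41.0. Rplp1 in macrophages was low in young replicate 2, at 38.8, where the other young libraries had 41.1 to 41.2.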

How the results depend on the processing

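Of the counts and shares under the alternatives, 282 stayed within 1.5 times of the main count or within 1 SD and 12 moved. Of the values of named genes, 1456 kept their direction and side of the threshold, 159 lost the call, 8 gained one and 1 changed sign. Between ages DESeq2 called 4 members in endothelial cells and 1 in progenitors, where edgeR called 0, and leaving out single libraries gave 0 to 6 in B cells, with 6 without old replicate 3. Between B and T cells, leaving out single libraries gave 8 to 24 calls, the most without young replicate 1, at most 5% mitochondrial UMIs gave 5, the young libraries alone 6 and the old alone 4. Endothelial cells against progenitors had 49 calls in the young libraries alone. Macrophages against progenitors had 35 there and 39 to 64 with single libraries left out. The endothelial interaction term had 1 call without scaling. In the old libraries alone Rpl28 (-0.018) changed sign in T cells against progenitors. The cause was not tested in any of these, and the shares of all genes called are not given beside these counts. In the B cell interaction term the median of all genes was 0.07, -0.04 with RLE size factors and -0.05 without scaling. Clustering on 30 neighbours, chosen after seeing the data, gave 48 calls in macrophages against progenitors. Putting the members and the ribosomal pseudogenes back among the genes open to selection left 0 members selected, so the members act there only through the scaling of cells. Whether pseudogenes were selected was not counted. DESeq2 was not run on the interaction term.

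Young and old libraries share replicate numbers, which the main age test did not take as pairs. The correlation of the deviations of same-numbered libraries from the group means ran from -0.098 to 0.216 over 15 pairs, and 4 were over 0.1. Those were replicates 2 and 3 in macrophages (0.107 and 0.216) and in endothelial cells (0.207 and 0.199). No correlation was computed for differently numbered libraries, so these values have no reference and cannot decide whether the numbers mark pairs. With the replicate block, the age test called 0 members in each of the 5 classes, with 0, 0, 0, 3 and 42 at an unadjusted p under 0.05 in progenitors, macrophages, T, B and endothelial cells. Without the block 17.3%, 4.47%, 7.84%, 8.33% and 9.3% of all genes were so, and the shares with the block are not given here.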
